A study of Mus musculus with 58 samples.

Results

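The 4 Hox clusters of the mouse were taken as the intervals chr6:52100001-52220000 for HoxA, chr11:96050001-96240000 for HoxB, chr15:102740001-102880000 for HoxC and chr2:74490001-74610000 for HoxD, all in the mm9 build. Their limits are positions and use no measured value, although the clusters were picked for description with earlier results of these data known. They cover 120, 190, 140 and 120 kb. In windows of 5 kb they make up 114 of the 527812 windows of the autosomes and X. They hold the 38 listed genes, 10 in HoxA (Hoxa2, Hoxa3, Hoxa4, Hoxa5, Hoxa6, Hoxa7, Hoxa9, Hoxa10, Hoxa11 and Hoxa13), 10 in HoxB (Hoxb1, Hoxb2, Hoxb3, Hoxb4, Hoxb5, Hoxb6, Hoxb7, Hoxb8, Hoxb9 and Hoxb13), 9 in HoxC (Hoxc4, Hoxc5, Hoxc6, Hoxc8, Hoxc9, Hoxc10, Hoxc11, Hoxc12 and Hoxc13) and 9 in HoxD (Hoxd1, Hoxd3, Hoxd4, Hoxd8, Hoxd9, Hoxd10, Hoxd11, Hoxd12 and Hoxd13). An interval is measured as a whole. Where single genes lie inside it was not used, because no gene positions in mm9 were at hand, so no value below belongs to 1 gene.

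Hox genes encode homeodomain transcription factors that assign identity along the body axis. Within a cluster they lie in the order of their numbers, and low-numbered genes are used earlier and nearer the head than high-numbered ones. In cells that do not use them, the clusters are textbook targets of Polycomb repression, marked by trimethylation of histone H3 at lysine 27. Acetylation of the same residue, H3K27ac, is found at active promoters and enhancers and cannot share that lysine with methylation. Oocytes in growth are known for broad domains of histone modifications, and SETD2, which places H3K36me3 over transcribed genes, is the enzyme removed in this study.

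Full-grown mouse oocytes (FGO) were profiled for H3K27ac with STAR ChIP-seq, an immunoprecipitation protocol suited to small numbers of cells. The controls were labelled Setd2+/- and the knockouts Setd2-/-, from a maternal knockout of Setd2, and the protocol shared by the samples names females of 8 weeks. The labels do not state what drives the deletion, how many animals were used or whether the replicates came from separate animals. The tracks hold no RNA, so loss of Setd2 was not checked here. Each genotype had 2 replicates that share 1 deposited track, so 4 of the 58 samples of the series give 2 pools. The values are the authors' pooled RPKM, read numbers scaled by bin length and by sequencing depth, and with 1 pool per genotype there is no spread between replicates, no test and no p-value. Intervals given with ratios are exact binomial (Clopper-Pearson) at 95% and cover counting error only. They are too narrow as a measure of all error, since spread between replicates is left out. They also take reads as independent, so any clumping of reads would make them too narrow for counting error as well. The variance of reads over bins of 100 bp inside the Hox windows was 1.98 times the mean in control and 3.64 times in knockout. That excess holds real differences between places as well as any clumping of reads, which were not told apart. Of the bins with reads in the Hox windows, 36.4% held an even number of reads in control and 50.6% in knockout. The cause of that difference was not tested. The pools held 30694806 control and 29367645 knockout reads, of which 4585 and 7358 lay in the clusters. The reference used below is the mean over the autosomes, 0.374 RPKM for the control pool and 0.387 RPKM for the knockout pool.

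Many Hox promoters are rich in CpG, the dinucleotide whose density marks the promoters at which Polycomb proteins typically gather. RefSeq promoters (GRCm38.p6, 250 bases before to 50 bases after a start site) matched 22 of the 38 listed genes with 24 start sites, 9 genes in HoxA, 3 in HoxB, 1 in HoxC and 9 in HoxD. The genes not matched were Hoxa4, Hoxb2, Hoxb3, Hoxb5, Hoxb6, Hoxb7, Hoxb9, Hoxb13, Hoxc5, Hoxc6, Hoxc8, Hoxc9, Hoxc10, Hoxc11, Hoxc12 and Hoxc13. The Hox promoters had a median of 14.5 CpG in 300 bases, against 7.00 over all 32851 promoters, and 20 of 24 lay at or above that overall median. The ratio of observed to expected CpG was at least 0.6 in 12 of the 24 Hox promoters and in 35.8% of all promoters. They varied widely, from 4 CpG at Hoxa9, at 1 of 2 starts of Hoxd11 and at Hoxd4 to 45 at Hoxa13 and 37 at Hoxd13. The word TATAAA, on either strand, occurred in 4 of 24 Hox promoters (16.7%) and in 13.6% of all.

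The sequences below show this range, with the matched promoter richest in CpG in each cluster and, last, Hoxa9, one of those with the fewest. They are the 250 bases before the start site, 5′ to 3′ on the gene's strand, with CpG in capitals and positions in GRCm38.p6, which do not apply to the mm9 intervals.
Hoxa13 (chr6:52260881-52261130, minus strand): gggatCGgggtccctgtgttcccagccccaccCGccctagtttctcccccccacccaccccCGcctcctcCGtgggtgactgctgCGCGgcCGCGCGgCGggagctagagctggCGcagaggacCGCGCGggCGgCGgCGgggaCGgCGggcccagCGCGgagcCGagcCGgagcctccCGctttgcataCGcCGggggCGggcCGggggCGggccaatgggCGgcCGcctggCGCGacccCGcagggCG
Hoxd13 (chr2:74667975-74668224, plus strand): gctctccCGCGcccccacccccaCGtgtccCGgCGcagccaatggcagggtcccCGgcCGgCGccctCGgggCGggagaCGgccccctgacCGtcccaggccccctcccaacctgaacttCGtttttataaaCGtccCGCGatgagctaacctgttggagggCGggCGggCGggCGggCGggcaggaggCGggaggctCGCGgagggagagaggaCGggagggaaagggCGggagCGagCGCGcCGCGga
Hoxb4 (chr11:96318017-96318266, plus strand): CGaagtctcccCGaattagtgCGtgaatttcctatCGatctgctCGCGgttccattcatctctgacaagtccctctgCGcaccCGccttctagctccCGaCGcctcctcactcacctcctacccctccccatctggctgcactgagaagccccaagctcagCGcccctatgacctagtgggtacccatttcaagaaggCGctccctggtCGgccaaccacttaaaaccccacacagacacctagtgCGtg
Hoxc4 (chr15:103034145-103034394, plus strand): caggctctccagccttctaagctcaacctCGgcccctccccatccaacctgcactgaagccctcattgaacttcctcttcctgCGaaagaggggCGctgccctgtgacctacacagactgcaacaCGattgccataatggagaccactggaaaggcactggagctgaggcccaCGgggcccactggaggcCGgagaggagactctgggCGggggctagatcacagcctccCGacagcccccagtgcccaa
Hoxa9 (chr6:52227371-52227620, minus strand): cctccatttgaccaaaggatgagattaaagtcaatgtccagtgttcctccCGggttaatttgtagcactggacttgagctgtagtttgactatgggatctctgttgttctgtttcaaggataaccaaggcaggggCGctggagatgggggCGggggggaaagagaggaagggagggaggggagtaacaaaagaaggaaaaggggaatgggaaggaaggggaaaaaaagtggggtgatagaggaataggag
Hoxa13 and Hoxd13, which pattern the distal limb and the hindmost trunk, had 35 and 31 CpG in the bases printed. Hoxb4 had 14, Hoxc4 had 8 and Hoxa9 had 3. A mean of H3K27ac over HoxA or HoxD thus covers CpG-rich and CpG-poor starts alike. In HoxB and HoxC too few genes were matched to tell. No peak was assigned to any of these promoters.

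**Figure D1:**
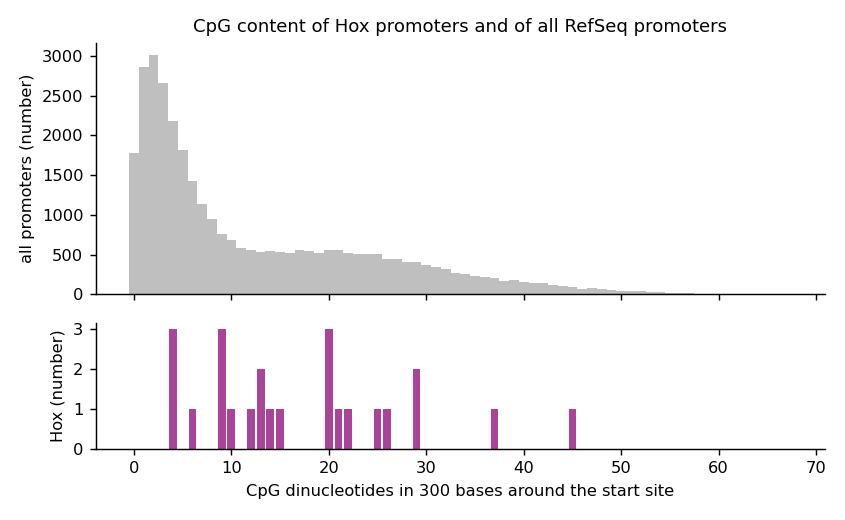
Number of promoters (vertical axes) by CpG dinucleotides in 300 bases around the start site (horizontal axis), for all 32851 RefSeq promoters in grey and the 24 Hox promoters in purple. The Hox promoters range from 4 to 45 CpG, with a median of 14.5 against 7.00 for all.

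The clusters also carry microRNA genes of families that are spread over the clusters like the Hox genes themselves. The miR-10 genes lie in HoxB and HoxD, and the miR-196 genes in HoxA, HoxB and HoxC. Their mature 5′ arms are shown because the shared seed, bases 2 to 8 in capitals, shows that the same family recurs in clusters whose H3K27ac is compared below.
mmu-miR-10a-5p (HoxB): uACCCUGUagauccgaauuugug
mmu-miR-10b-5p (HoxD): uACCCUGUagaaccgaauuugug
mmu-miR-196a-5p (HoxB and HoxC): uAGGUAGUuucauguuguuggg
mmu-miR-196b-5p (HoxA): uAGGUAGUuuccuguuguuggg
The miR-10 pair differs by 1 base, U12A, and the miR-196 pair by 1 base, A12C, counted from the 5′ end and outside the seed. Both are known to target Hox transcripts.

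In control oocytes HoxA, HoxC and HoxD stood below the sequence around them in H3K27ac, and HoxB hardly did by its mean. HoxB stood at 0.896 of its flanks by means, but at 0.649 by medians of 5 kb windows. In knockout oocytes all 4 clusters carried more, HoxA 2.65 times as much, HoxD 2.04 times, HoxC 1.67 times and HoxB 1.38 times. HoxA and HoxD thereby moved towards the level of their flanks. HoxC did not, because its flanks were higher by nearly the same factor.

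HoxA, with 393 control and 995 knockout reads, went from 0.107 to 0.282 RPKM (ratio 2.65, 95% counting interval 2.35 to 2.98). It was the poorest of the 4 clusters in both pools, at 0.285 of the autosomal mean in control and 0.729 in knockout. HoxD went from 0.210 to 0.430 RPKM (ratio 2.04, 1.87 to 2.23), from 775 to 1514 reads. It went from 0.563 to 1.11 times the autosomal mean. HoxC went from 0.292 to 0.488 RPKM (ratio 1.67, 1.55 to 1.79), or from 0.782 to 1.26 times that mean. HoxB was the richest in both pools and had the lowest ratio, 0.371 to 0.510 RPKM (ratio 1.38, 1.30 to 1.46), or 0.991 to 1.32 times the mean. The order of the clusters in control, HoxA, HoxD, HoxC and HoxB from low to high, was the same in knockout, and the ratios ran in the reverse order. With autosomal means set equal the ratios were 2.56, 1.33, 1.61 and 1.97 for HoxA, HoxB, HoxC and HoxD.

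The size of these ratios was read against autosomal stretches of the same length. Of 19510 stretches of 120 kb, 12.1% were at least 2-fold higher in knockout, and 5.14% reached the ratio of HoxA and 11.4% that of HoxD. For HoxC, 20.0% of 16688 stretches of 140 kb reached its ratio, with 11.6% past 2-fold. For HoxB, 30.7% of 12281 stretches of 190 kb did, with 10.6% past 2-fold. The median ratio of such stretches was 1.04 to 1.05, and all 4 clusters lay above it. In control, 12.1% of stretches were poorer than HoxA, 22.7% than HoxD, 31.0% than HoxC and 42.4% than HoxB. In knockout these shares were 41.3%, 61.9%, 67.9% and 70.0%. All 4 thus ranked higher among stretches of their length in knockout than in control, while the median stretch of 120 kb was at 0.407 RPKM in control and 0.338 RPKM in knockout.

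Autosomal windows that were poor in control tended to have higher ratios, so the clusters were also set beside stretches of like level. With the stretches split into 10 classes of equal size by control level, and in the class of the cluster itself, the median ratio was 1.26 for HoxA and 0.997 for HoxD, and 5.77% and 7.26% of them reached the ratio of the cluster. The same shares were 15.2% for HoxC and 29.4% for HoxB. Classes by the mean of both pools gave 4.36% for HoxA, 3.84% for HoxD, 7.13% for HoxC and 16.2% for HoxB. These shares describe where the clusters fall and are no test.

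**Figure D2:**
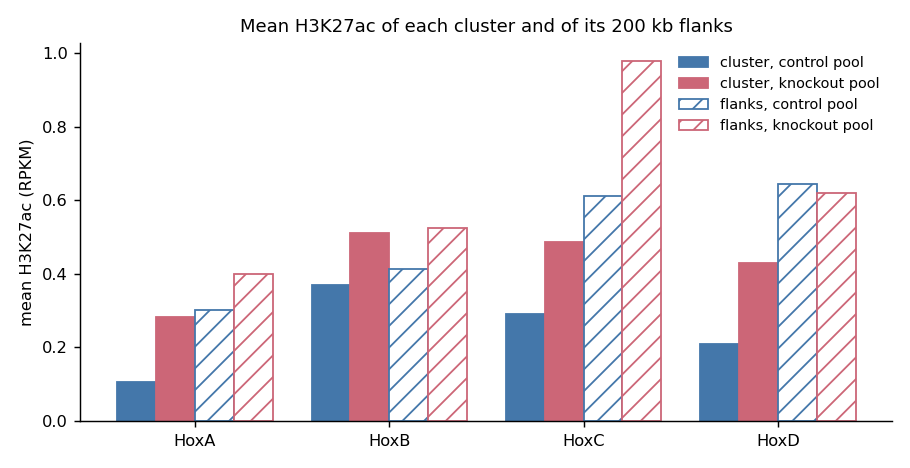
Mean H3K27ac (RPKM, vertical axis) of each cluster (filled bars) and of the 200 kb on both sides (hatched bars) in the control pool (blue) and the knockout pool (red), 1 pool per genotype and no error bars. In control the clusters HoxA, HoxC and HoxD lie well below their flanks; in knockout HoxC, at 0.488 against 0.980 RPKM, is farthest below.

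Relative to 200 kb of flank on each side, a comparison within 1 track that no scaling between tracks can change, HoxD stood at 0.327 in control and 0.692 in knockout. HoxA stood at 0.353 and 0.704. HoxC hardly moved, from 0.478 to 0.497, and HoxB went from 0.896 to 0.969. The flanks themselves behaved in different ways. Those of HoxC went from 0.612 to 0.980 RPKM, a ratio of 1.60 (1.56 to 1.65), close to the 1.67 of the cluster. Those of HoxA had a ratio of 1.33 (1.27 to 1.39) and those of HoxB 1.27 (1.23 to 1.32). Those of HoxD, at 0.644 and 0.621 RPKM, had a ratio of 0.964 (0.934 to 0.996). Flanks of 100 kb put HoxA at 0.567 and 0.805, and flanks of 500 kb put HoxD at 0.527 and 0.910, so the depth of these lows depends on the flank, while the direction between the pools did not. For HoxB the direction did depend on it, since flanks of 500 kb gave 0.866 in control and 0.725 in knockout. The ratio of the cluster over that of its flanks was 2.00 for HoxA, 2.12 for HoxD, 1.08 for HoxB and 1.04 for HoxC.

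The sides of a cluster could differ. The HoxD flank beyond the Hoxd13 end went from 0.544 to 0.635 RPKM, and the flank beyond the Hoxd1 end, towards Mtx2, from 0.744 to 0.607 RPKM. The next protein-coding gene past Hoxd13 in the RefSeq order is Evx2. Like the other neighbours named here, it was not placed inside or outside the interval, because no mm9 positions were at hand. Flanks of this size are known to hold remote enhancers of HoxD in limb and trunk. The HoxA flank beyond the Hoxa13 end, towards Evx1, went from 0.263 to 0.398 RPKM, and the one beyond the Hoxa2 end, towards Skap2, from 0.342 to 0.404 RPKM. HoxC was flanked by rich sequence on both sides, at 0.569 and 0.655 RPKM in control and 0.896 and 1.06 RPKM in knockout.

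**Figure D3:**
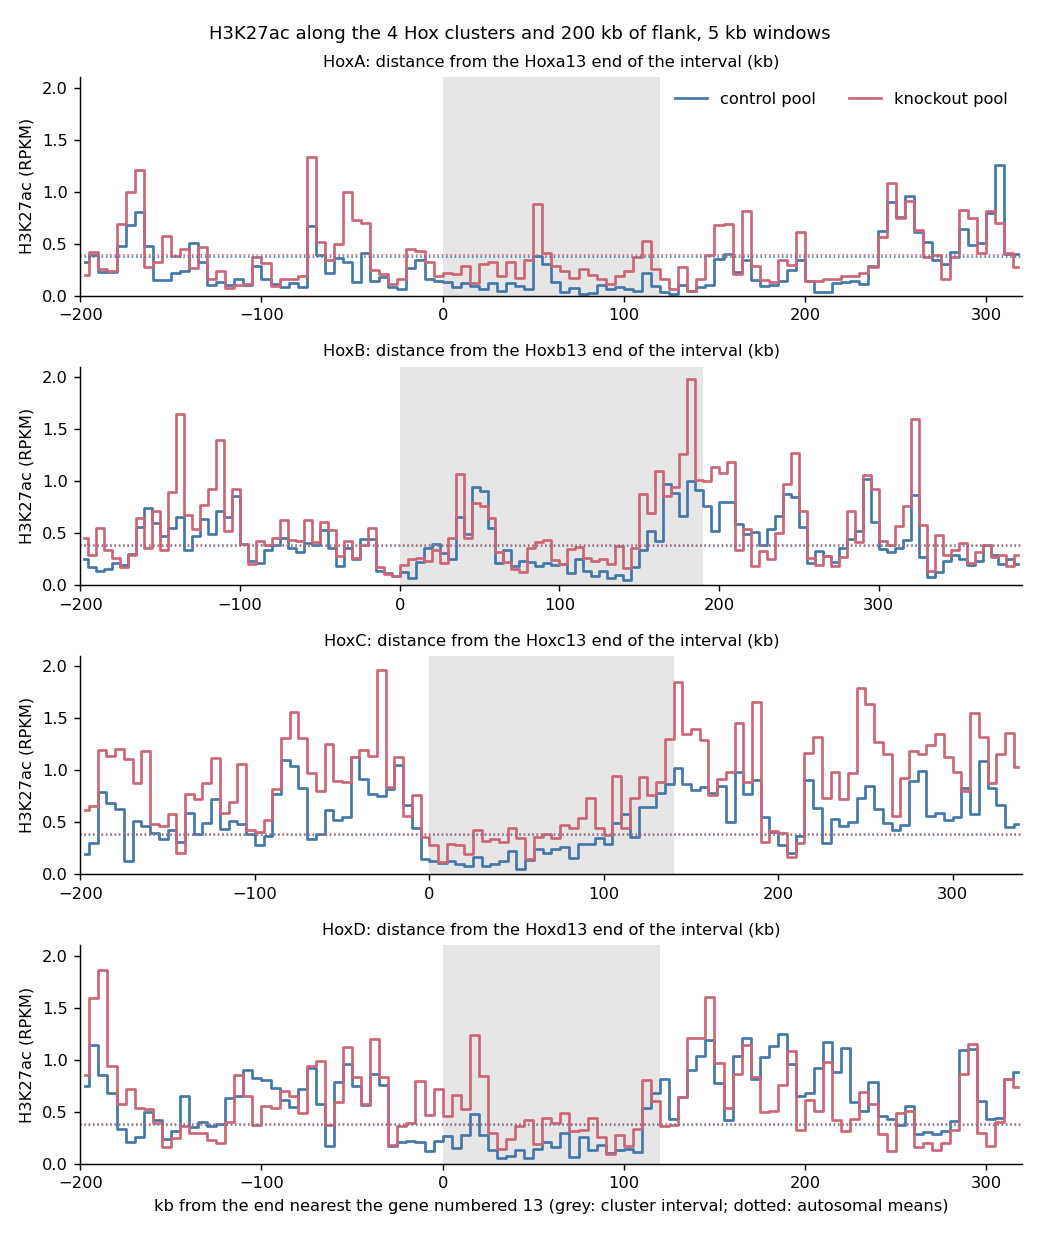
H3K27ac (RPKM, vertical axis) in 5 kb windows along each cluster interval (grey) and 200 kb of flank, drawn from the end nearest the gene numbered 13 (horizontal axis, kb), control pool in blue and knockout pool in red, with dotted lines at the autosomal means of 0.374 and 0.387 RPKM. The knockout line lies above the control line in 101 of 114 windows inside the intervals, and the low stretch of HoxC in control begins 5 kb outside its Hoxc13 end.

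In HoxA, HoxC and HoxD the higher signal was spread over most windows rather than held by a few. It was less even in HoxB, where 10 of 38 windows were lower. Of the 114 windows, 101 (88.6%) were higher in knockout and 13 lower, where 50.5% of all 504546 windows with a read were higher. All 24 windows of HoxA were higher, 27 of 28 in HoxC, 22 of 24 in HoxD and 28 of 38 in HoxB. With autosomal means set equal 100 of 114 were higher. In the flanks 230 of 320 windows were higher. At least 2-fold differences, on a scale of log2 (RPKM + 0.1) that understates changes of low windows, numbered 26 higher (22.8%) and 0 lower in the clusters. Over all windows with a read 8.98% were higher and 13.7% lower by that rule, and in the flanks 26 of 320 (8.12%) and 4 (1.25%). With a pseudocount of 0.01 RPKM the Hox count was 53, against 19.2% of all windows, and with 0.5 RPKM it was 0, against 1.14%. By cluster, 8 of 24 windows passed in HoxA, 8 of 24 in HoxD, 5 of 28 in HoxC and 5 of 38 in HoxB. The median log2 ratio was 0.93 in HoxA, 0.77 in HoxD, 0.72 in HoxC and 0.44 in HoxB, against 0.01 over all windows. No filter on low windows was applied, since only 31 of the 114 windows reached the genome-wide mean of 0.379 RPKM.

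Windows of HoxA ranged from 0.0196 to 0.384 RPKM in control, with a median of 0.0880, and from 0.109 to 0.879 RPKM in knockout, with a median of 0.249. In HoxD the range was 0.0587 to 0.684 RPKM with a median of 0.147 in control, and 0.0954 to 1.24 RPKM with a median of 0.378 in knockout. HoxC ran from 0.0521 to 0.873 RPKM with a median of 0.231, and from 0.123 to 1.30 RPKM with a median of 0.409. HoxB had the widest range, 0.0521 to 1.00 RPKM with a median of 0.241, and 0.129 to 1.98 RPKM with a median of 0.354. The ranges of the 2 pools overlapped in each cluster. Windows under 50% of the autosomal mean of their own pool numbered 60 of 114 (52.6%) in control and 17 (14.9%) in knockout, whereas over all windows with a read that share went from 33.2% to 41.5%. In HoxA these windows went from 21 of 24 to 7, in HoxD from 15 of 24 to 4, in HoxC from 12 of 28 to 2 and in HoxB from 12 of 38 to 4.

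In each class of control level the median of the Hox windows lay above that of the autosomal windows. Below 0.05 RPKM in control, 5 Hox windows had a median log2 ratio of 1.28, against 0.49. In the class from 0.05 to 0.1 RPKM in control, 22 Hox windows had a median log2 ratio of 0.88 and 48406 autosomal windows 0.31. From 0.1 to 0.2 RPKM the medians were 0.76 for 34 Hox windows and 0.11, and from 0.2 to 0.4 RPKM they were 0.54 for 32 and -0.09. From 0.4 to 0.8 RPKM they were 0.40 for 14 and -0.24, and above 0.8 RPKM 0.08 for 7 and -0.32. Classes by the mean of both pools gave 0.72 for 33 Hox windows against 0.04 from 0.1 to 0.2 RPKM, 0.75 for 50 against -0.31 from 0.2 to 0.4 RPKM and 0.60 for 18 against -0.10 from 0.4 to 0.8 RPKM. The richest class went the other way, with 0.16 for 11 Hox windows above 0.8 RPKM against 0.41, and so did the class from 0.05 to 0.1 RPKM with 0.14 for 2 windows against 0.25. By control level, the flank medians from the lowest class to the highest were 0.87, 0.41, 0.54, 0.23, 0.29 and 0.14, between those of Hox and autosomal windows except above 0.8 RPKM, where the 59 flank windows lay above the 7 Hox windows.

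**Figure D4:**
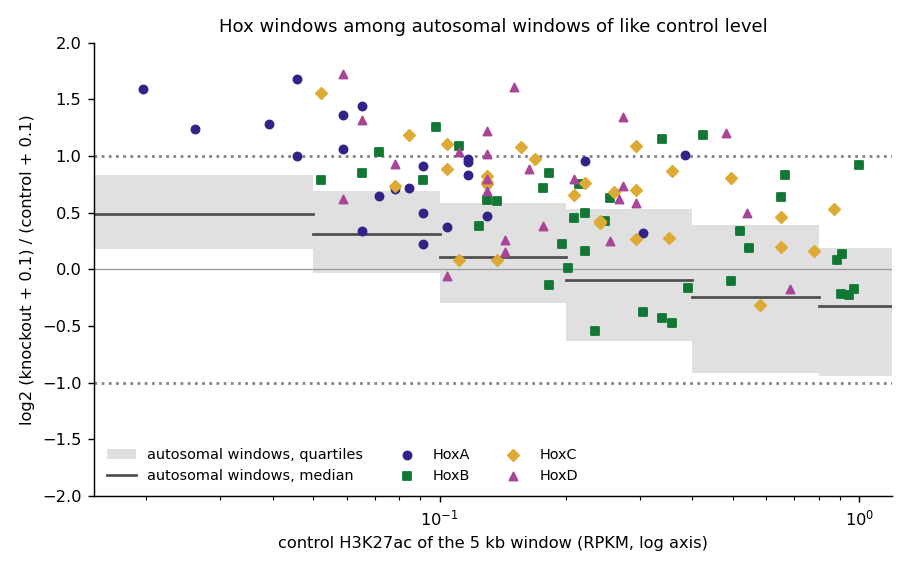
Log2 ratio of knockout over control (RPKM + 0.1, vertical axis) of the 114 Hox windows of 5 kb against their control H3K27ac (RPKM, log axis), with the median (line) and quartiles (grey) of autosomal windows in classes of control level and dotted lines at 2-fold. Most Hox windows lie above the line of their class, and 26 lie at or above the upper dotted line.

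The share of bins touched by reads, which disregards their height, was higher in knockout in HoxA, HoxD and HoxC but lower in HoxB. In HoxA 20.7% of bins of 100 bp held a read in control and 34.2% in knockout, and in HoxD 32.2% and 43.3%. HoxC went from 42.2% to 45.1% and HoxB from 47.7% to 43.9%. Over the autosomes the share was lower in knockout, at 33.6% against 44.0%, and so it was in the HoxD flanks, at 49.8% against 67.0%. A covered bin of HoxA held 1.58 reads on average in control and 2.42 in knockout, against 2.61 and 3.38 over the autosomes. No bin carried the result, as the richest held 1.53% of the control reads and 1.41% of the knockout reads of HoxA, and at most 1.29% and 1.12% in HoxD. In stretches of 1 kb, 28 of 120 were empty in HoxA in control and 4 in knockout, and in HoxD 12 and 4 of 120. In HoxB 6 and 3 of 190 were empty and in HoxC 7 and 2 of 140, where over the autosomes the shares were 7.41% in control and 8.19% in knockout. HoxB, at 3.16%, and HoxC, at 5.00%, were thus below the autosomal share already in control.

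Along the clusters the signal followed the order of the genes in HoxC. With the interval cut into 3 equal parts, counted from the Hoxc13 end, control H3K27ac was 0.119, 0.213 and 0.546 RPKM, and knockout H3K27ac 0.291, 0.422 and 0.749 RPKM. The ratio declined in the same order, from 2.45 (2.05 to 2.95) to 1.99 (1.73 to 2.29) and 1.37 (1.25 to 1.51). The end of Hoxc13, a gene of the hindmost body and the skin appendages, was thus the poorest and had the largest ratio. HoxD was more even in control, with 0.214, 0.165 and 0.253 RPKM from the Hoxd13 end, and its ratio declined along the same direction, from 2.58 (2.23 to 2.98) to 2.23 (1.88 to 2.64) and 1.47 (1.27 to 1.71). In HoxC and HoxD alike, the counting intervals of the first part and the middle part overlapped, and only the last part lay clear below them. In knockout the Hoxd13 end was the richest part of HoxD, at 0.552 RPKM against 0.366 and 0.371.

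HoxA and HoxB did not show this gradient. In HoxA the 3 parts had 0.0953, 0.138 and 0.0863 RPKM in control and 0.247, 0.345 and 0.255 RPKM in knockout, and the ratios of 2.59, 2.49 and 2.96 had overlapping counting intervals. HoxB was high at both ends and low between, with 0.429, 0.192 and 0.491 RPKM in control. Its ratio was 1.08 (0.981 to 1.19) at the Hoxb13 end, 1.48 (1.30 to 1.70) in the middle and 1.59 (1.47 to 1.73) at the Hoxb1 end. Hoxb13 is set apart from the rest of HoxB by a long stretch without Hox genes, and the interval used here includes that stretch.

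**Figure D5:**
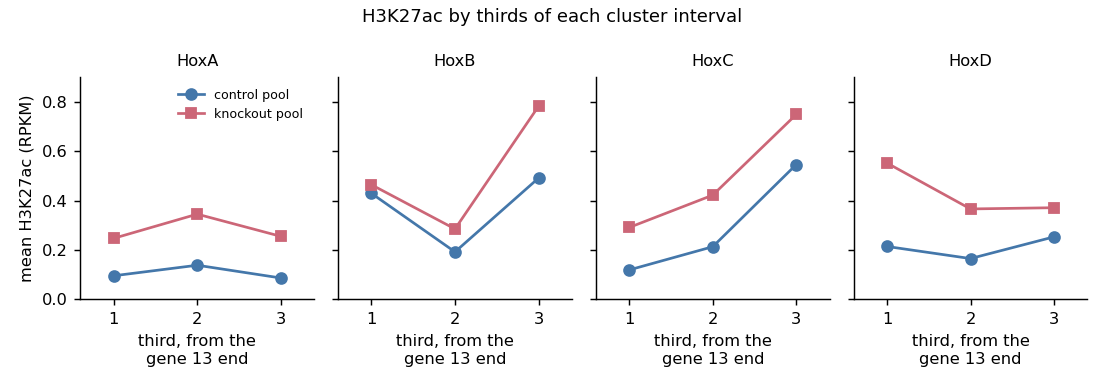
Mean H3K27ac (RPKM, vertical axis) in 3 equal parts of each cluster interval, numbered from the end nearest the gene numbered 13 (horizontal axis), control pool in blue and knockout pool in red, 1 pool each. HoxC is higher towards its Hoxc4 end in both pools, HoxB is lowest in the middle, and in HoxD the Hoxd13 end is the highest part in knockout at 0.552 RPKM.

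The richest windows marked places that kept their rank or changed it. In HoxA the same window, at 52165001 to 52170000 on chromosome 6, was the highest in both pools, with 59 and 129 reads, or 0.384 and 0.879 RPKM (ratio 2.29, 1.67 to 3.17). In HoxB the window at 96230001 to 96235000 on chromosome 11, within the last 10 kb of the Hoxb1 end, was the highest in both, with 154 and 291 reads, or 1.00 and 1.98 RPKM (ratio 1.98, 1.62 to 2.42). In HoxC the last window of the interval, at 102875001 to 102880000 on chromosome 15 at the Hoxc4 end, was the highest in both, at 0.873 and 1.30 RPKM. In HoxD the highest window changed ends. It was the last window, at 74605001 to 74610000 on chromosome 2, in control, with 0.684 and 0.599 RPKM, and the window at 74505001 to 74510000, near the Hoxd13 end, in knockout. The latter went from 74 to 182 reads, or from 0.482 to 1.24 RPKM (ratio 2.57, 1.95 to 3.42).

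The largest log2 ratios lay in windows with few reads in control. They were at 52110001 to 52115000 in HoxA (7 and 54 reads, ratio 8.06, 3.66 to 21.0), at 74535001 to 74540000 in HoxD (9 and 62 reads, ratio 7.20, 3.56 to 16.5), at 102790001 to 102795000 in HoxC (8 and 51 reads, ratio 6.66, 3.14 to 16.3) and at 96185001 to 96190000 in HoxB (15 and 55 reads, ratio 3.83, 2.13 to 7.30). Their log2 ratios were 1.68, 1.72, 1.56 and 1.26. The poorest window of all in control, at 52140001 to 52145000 in HoxA, had 3 reads there and 38 in knockout (ratio 13.2, 4.20 to 67.0). These intervals do not allow for the windows having been picked as the extremes of 24 to 38. The last was picked as the poorest of 114 windows in control, a choice that by itself tends to raise its ratio. The lowest log2 ratios were -0.54 in HoxB, at 96125001 to 96130000 (36 and 19 reads), -0.31 in HoxC, at 102850001 to 102855000, -0.17 in HoxD, at the last window of the interval, and 0.22 in HoxA, at 52200001 to 52205000.

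How closely the profile inside a cluster matched between the pools differed by cluster, with the weakest match in HoxA. Compared window by window as log2 (RPKM + 0.1), the pools had a Pearson's r of 0.84 in HoxC (28 windows), 0.80 in HoxB (38), 0.70 in HoxD (24) and 0.65 in HoxA (24), and Spearman's rho was 0.88, 0.72, 0.71 and 0.36. In the flanks, over 80 windows each, r was 0.66 for HoxC, 0.77 for HoxB, 0.60 for HoxD and 0.81 for HoxA. Windows of a pool share its library and depth and are not replicates, and HoxA had the fewest reads. The richest stretch of 1 kb in HoxA stood at 1.39 times the autosomal mean in control and 2.99 times in knockout. No stretch of HoxA thus reached 3 times that mean, in knockout by a narrow margin. In HoxB 5 of 190 stretches did in control and 19 in knockout, in HoxC 1 and 8 of 140 and in HoxD 0 and 3 of 120. Over the autosomes 4.86% of such stretches did in control and 8.09% in knockout, so that HoxB alone of the 4 held a larger share than the autosomes, and only in knockout.

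The borders of the low signal were sharpest at the Hoxc13 end. There the 20 kb outside held 0.578 RPKM in control and the 20 kb inside 0.119 RPKM, a step of 4.86 that became 2.88 in knockout (0.705 and 0.245 RPKM). At the Hoxc4 end the step was 1.20 in control and 1.52 in knockout. At the Hoxd1 end it was 1.88 and 1.36, and at the Hoxa13 end 2.12 and 1.68. At other ends the low signal did not stop at the interval. Beyond the Hoxd13 end the 20 kb outside, at 0.192 RPKM, were poorer than the 20 kb inside, at 0.293 RPKM, in control, and in knockout they held 0.596 and 0.722 RPKM. Beyond the Hoxa2 end the 20 kb outside held 0.0472 RPKM in control and 0.136 RPKM in knockout, less than the 0.104 and 0.346 RPKM inside. At the Hoxb13 end the 20 kb outside and the 20 kb inside both held 0.194 RPKM in control. In knockout they held 0.232 and 0.233 RPKM. The intervals are thus not the exact limits of the poor region in HoxA, in HoxD and at the Hoxb13 end of HoxB. In control the low run of HoxC also began 5 kb outside its Hoxc13 end.

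Runs of adjacent windows under 50% of the autosomal mean were shorter inside each cluster in knockout, counting only their length within the interval. In control HoxA held 2 runs with 50 kb inside, one at 52110001 to 52160000 and one at 52170001 to 52230000, whose whole length was 60 kb. The longest stretch inside HoxC was 45 kb of a run of 50 kb (102735001 to 102785000), and the one inside HoxB was 35 kb (96165001 to 96200000). HoxD held 2 runs of 30 kb, at 74515001 to 74545000 and at 74570001 to 74600000. In knockout the longest stretch inside was 15 kb in HoxA, 10 kb in HoxB and 5 kb, the length of 1 window, in HoxC and HoxD. A run of 20 kb in HoxB (96035001 to 96055000) lay mostly outside, with 5 kb inside, as did a run of 25 kb in control with 10 kb inside. Such runs are common. Of 33703 runs on the autosomes in control, 10.2% were at least 50 kb long, and of 48268 in knockout 39.4% were at least 15 kb long. Under 25% of the mean the run with the most length inside measured 20 kb in HoxA, 5 kb in HoxB and in HoxC and 10 kb in HoxD in control. In knockout only HoxD had such a window, a run of 5 kb.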

How the data were processed

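The deposited tracks give RPKM per bin of 100 bp, which the authors computed, without rows for empty bins; the unit was read from the values, which sum as RPKM must. The labels name 1 file for both replicates of a genotype, so each track is a pool. Per the submitters' processing notes the build is mm9 and the tools include Bowtie2 2.2.2; whether reads were extended, deduplicated or set against an input is not stated there. Reads were recovered from the step between values, 0.326 RPKM in control and 0.341 RPKM in knockout, within a tolerance of 0.005 RPKM.

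Cluster intervals and 200 kb flanks were averaged over bins, and windows of 5 kb compared as log2 of RPKM + 0.1 and called at 2-fold. Low runs are ranked by their length inside the interval. Stretches of the autosomes had a read in at least 90% of their windows. The members and lists were chosen with earlier results of these data known. Windows named are, per cluster, the highest in each pool and those of highest and lowest log2 ratio, plus the poorest in control, chosen after its values were seen. Promoters printed were picked by their CpG number. Values per gene, planned in case gene positions in mm9 came, were not computed. 1 gene of the clusters is not reported here. Alternatives were other pseudocounts, scalings, flanks, window sizes and fold rules. Read recovery and window calls were tested on simulated data with reads drawn independently. The calls were scored only where the mean of both simulated pools passed 0.1 RPKM, so clumped reads and poorer windows were not covered. The software was SciPy 1.17.1, NumPy 2.4.6 and pandas 2.3.3 under Python 3.11.15, with plots from matplotlib 3.10.9.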

Additional observations from a re-analysis of the deposited data

How the results depend on the processing

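All 4 clusters were higher in knockout under every alternative run: both pseudocounts, equal autosomal means, the median of all windows set to 0, at most 10 reads per bin and trimmed intervals. No paired analysis was possible because the 2 replicates of either genotype came as 1 pooled track, and leaving out a replicate was not run for the same reason. For HoxA, HoxB, HoxC and HoxD the log2 ratio was 1.33, 0.45, 0.72 and 1.00 with a pseudocount of 0.01 RPKM, and 0.37, 0.21, 0.32 and 0.39 with 0.5 RPKM. Relative to flanks of 100 kb, HoxA stood at 0.567 in control and 0.805 in knockout, HoxC at 0.441 and 0.501 and HoxD at 0.292 and 0.598. HoxB in knockout stood at 1.04 with these flanks, above them instead of below; the cause was not tested. With flanks of 500 kb HoxA stood at 0.291 and 0.578, HoxB in knockout at 0.725 and HoxD at 0.527 and 0.910. Medians of windows gave 0.777 for HoxA in knockout, 0.649 and 0.839 for HoxB, 0.415 and 0.417 for HoxC and 0.227 for HoxD in control. Intervals trimmed by 10 kb at each end gave 0.851 and 0.890 for HoxB, 0.428 and 0.470 for HoxC and 0.265 and 0.627 for HoxD. Windows at least 2-fold higher numbered 83 of 285 with windows of 2 kb (12.9% of all windows), where 2 were lower (17.2%), and 10 of 57 with 10 kb (7.13%). They numbered 53 with a pseudocount of 0.01 RPKM (19.2%), 0 with 0.5 RPKM (1.14%), 69 at 1.5-fold (22.1%) and 7 of the 31 windows that reached the mean of the genome (11.6%). With autosomal means equal they numbered 23 (8.03%), and with at most 10 reads per bin 25 (7.98%). Depth limits HoxA most, with 393 control reads, and the largest log2 ratios of single windows rest on 7 to 15 control reads.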
